A study of Homo sapiens with 9 samples.

Results

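The RNA of 10 genes of JAK-STAT signalling was followed in SKOV3 cells, a human ovarian cancer cell line. The genes were the kinases JAK1 and JAK2, the transcription factors STAT3, STAT5A and STAT5B, the feedback inhibitors SOCS1, SOCS2, SOCS3 and CISH, and the kinase PIM1. They were chosen by symbol, 10 of the 58735 genes in the deposited table, and all 10 passed the filter on low counts, as did 16350 genes in all. RNA was sequenced in 3 groups of 3 libraries. WT cells expressed WT CDK9 under basal conditions. ALK inhibitor cells expressed WT CDK9 and had the inhibitor for 24 h, and Tyr19Phe cells expressed CDK9 with phenylalanine in place of tyrosine 19, which cannot be phosphorylated there. The study describes such SKOV3 lines as stable lines in which CDK9 was depleted by shRNA and FLAG-tagged CDK9 was put back. Reads of the introduced and the endogenous CDK9 are counted together. The labels name no separate clones of a CDK9 form, so differences between lines and effects of the mutation cannot be told apart. The labels do not name the inhibitor or its dose, give no batch and do not say whether the libraries came from separate cultures, so p-values measure only the spread between these libraries.

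Cytokines such as IL-6 and growth factors bring receptor chains together, and the JAK kinases bound to those chains phosphorylate the receptor and then the STAT factors, which pair, enter the nucleus and switch on genes. SOCS proteins and CISH are made in response and damp the signal, so their RNAs are widely used as readouts of STAT activity, as is PIM1, a survival kinase. Active ALK can phosphorylate STAT3 in lymphoma, and IL-6 with STAT3 is a well-studied pair in ovarian cancer. RNA levels do not show whether a kinase or a STAT protein was phosphorylated.

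Total counts ranged from 18939449 to 19731228 in WT libraries, from 18169050 to 20974903 in ALK inhibitor libraries and from 26485891 to 29320184 in Tyr19Phe libraries, and a gene with 3 counts stood at 0.102 to 0.165 CPM (counts per 1e6, after TMM scaling), depending on the library. ALK inhibitor replicate 2 (19944 genes with a count) and Tyr19Phe replicate 3 (20635 genes) had fewer detected genes than the others of their groups. CDK9 itself had 48.6 ± 1.03, 45.6 ± 1.77 and 55.0 ± 3.94 CPM (SD, n = 3 each) in WT, ALK inhibitor and Tyr19Phe cells, and ALK had 0 to 5 counts per library. The epithelial and ovarian markers KRT7, KRT8, KRT18, EPCAM, PAX8 and ERBB2 were all present. PAX8 overlapped between all groups, but others moved with them: mean CPM in WT, ALK inhibitor and Tyr19Phe cells was 21.2, 20.9 and 11.97 for EPCAM, 1800, 2625 and 1470 for ERBB2, 1307, 1306 and 1695 for KRT8, 135, 149 and 177 for KRT18 and 1620, 1273 and 1523 for KRT7. Of 8 markers of leukocytes, endothelium and fibroblasts, PTPRC, CD3E, PECAM1 and DCN had at most 3 counts in any library, CD14 at most 7 and PDGFRB at most 11. CDH5 had 14 to 35 counts in Tyr19Phe libraries against at most 1 elsewhere, and COL1A1 had 104, 133 and 38.0 CPM on average in WT, ALK inhibitor and Tyr19Phe cells. Their part in the results below was not tested.

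CISH is the classical STAT5 target among the members. Its promoter is shown because, of the member promoters searched here, only it held the letters of the STAT palindrome. The motif searched was TTCNNNGAA, which reads the same on both strands. The 250 bases before the CISH start site, from RefSeq on GRCh38.p14, minus strand, chr3:50611775-50612024, are printed 5′ to 3′ with each match in capitals.
CISH: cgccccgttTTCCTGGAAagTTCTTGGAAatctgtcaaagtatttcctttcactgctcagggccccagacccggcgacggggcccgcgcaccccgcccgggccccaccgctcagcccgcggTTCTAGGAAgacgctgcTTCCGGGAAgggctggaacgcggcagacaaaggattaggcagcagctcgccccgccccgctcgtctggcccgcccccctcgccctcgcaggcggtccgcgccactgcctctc
The 4 matches lie 241 to 233, 230 to 222, 129 to 121 and 112 to 104 bases before the start site. The deposited CISH gene starts at 50611831, inside the printed stretch, so these distances hold for the RefSeq start only. Of 35116 RefSeq promoters, each from 250 bases before to 50 bases after a start, 2689 (7.66%) held at least 1 match and 7 (0.0199%) held at least 4. RefSeq promoters were matched for 9 members, 17 promoters in all, and the 16 of the other 8 members held no match. SOCS2 had no promoter in this set. The SOCS3 windows (78359618 to 78359917 and 78360876 to 78361175) left out the bases just before the deposited SOCS3 gene start at 78360077. A match is a description of the letters and says nothing of binding in these cells.

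The differences from WT that passed the test were small. Of the 10 members, 1 was called lower with the inhibitor, beside 2.73% of all tested genes, 1 was called higher in Tyr19Phe cells, beside 7.61%, and 2 were called higher in the direct comparison of these groups, beside 9.57%. With 10 genes such counts do not set the members apart from other genes. In ALK inhibitor cells JAK1 fell by 0.13 on the log2 scale, and no member rose. In Tyr19Phe cells STAT3 rose by 0.14, and no member fell. Between Tyr19Phe and ALK inhibitor cells STAT3 was higher by 0.14 and STAT5A by 0.53 in Tyr19Phe cells. Neither PIM1 nor any of the 4 feedback inhibitors passed the test in any comparison. The widest fitted difference from WT was that of CISH, 0.84 on the log2 scale with the inhibitor, which did not pass. These are bulk samples, in which fewer cells with an RNA and less of it per cell cannot be told apart.

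**Figure D1:**
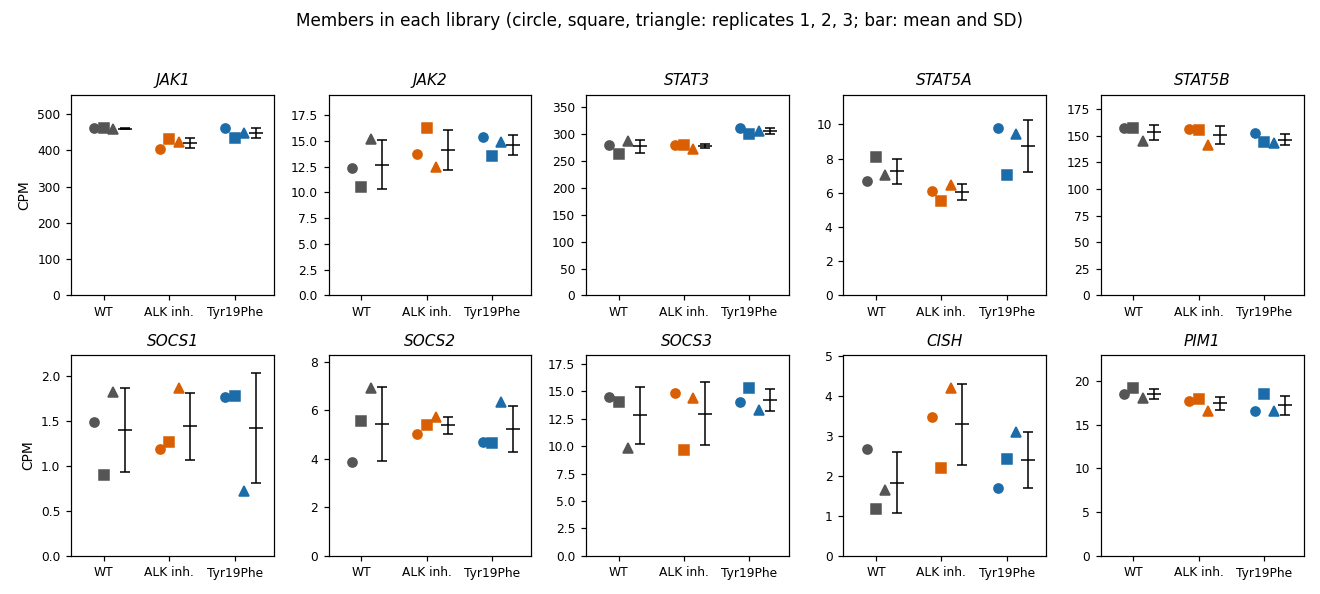
TMM-scaled CPM (vertical axis, linear from 0) of the 10 members in each of the 9 libraries by group, with the mean and SD beside the points. JAK1 is lower in the 3 ALK inhibitor libraries (404 to 431 CPM) than in the 3 WT libraries (458 to 462 CPM), STAT3 is highest in the 3 Tyr19Phe libraries (300.2 to 312 CPM), and the points of the SOCS genes overlap between groups.

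Levels are compared between genes per length, as RPKM (CPM per kilobase of the deposited gene length). In WT cells JAK1 had 72.9 ± 0.306 RPKM, STAT3 31.5 ± 1.40, STAT5B 23.7 ± 1.07, PIM1 6.24 ± 0.193, SOCS3 4.68 ± 0.943, JAK2 2.06 ± 0.381 and STAT5A 1.26 ± 0.126 (SD, n = 3 each). SOCS2, SOCS1 and CISH followed with 0.801 ± 0.225, 0.780 ± 0.260 and 0.358 ± 0.150 RPKM (SD, n = 3 each). Down to SOCS2 the WT libraries of neighbours in this order did not overlap, whereas SOCS2 and SOCS1 overlapped, as did SOCS1 and CISH. In RPKM, JAK1 stood far above JAK2, and STAT5B far above STAT5A. Among the kinases outside the members, TYK2 had 12.3 ± 0.326 RPKM and JAK3 0.0619 ± 0.0358 in WT cells. Among the other STAT genes, STAT6 had 12.1 ± 0.174 RPKM, STAT2 6.05 ± 0.613 and STAT4 0.142 ± 0.0546 (SD, n = 3 each).

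**Figure D2:**
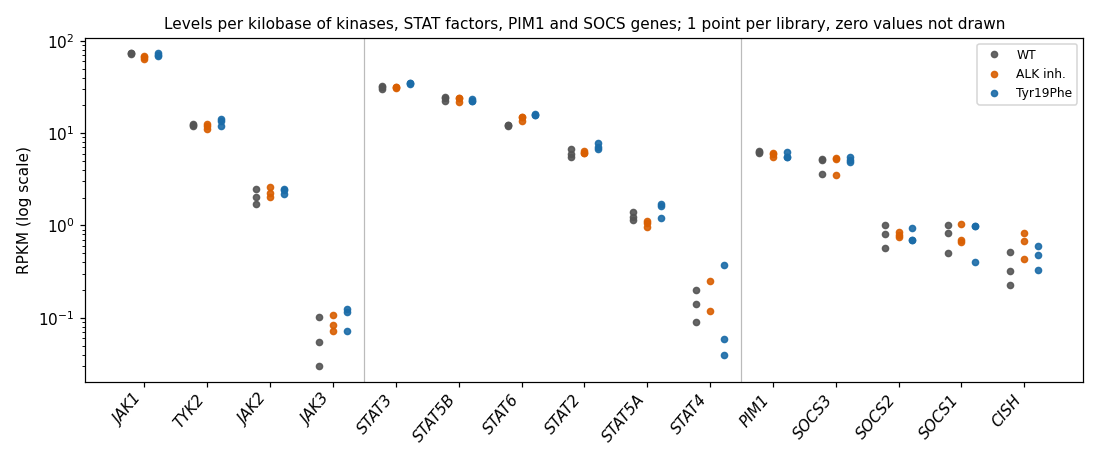
RPKM (vertical axis, log scale) of the 4 JAK kinases, 6 STAT genes and the SOCS genes, CISH and PIM1, 1 point per library, coloured by group; libraries at 0 cannot be drawn on a log axis. JAK1 stands highest, at 72.9 RPKM on average in WT cells, and CISH lowest of the members, at 0.358 RPKM.

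JAK1 (ENSG00000162434, chromosome 1 from 64833229 to 64966504, hg38) encodes the kinase shared by the IL-6 and interferon receptors. It had 461, 462 and 458 CPM in WT replicates 1 to 3, 404, 431 and 424 CPM in the ALK inhibitor libraries, and 462, 434 and 448 CPM in the Tyr19Phe libraries. All ALK inhibitor libraries lay below all WT and all Tyr19Phe libraries, while Tyr19Phe replicate 1 lay among the WT libraries. The inhibitor group differed from WT by -0.13 on the log2 scale (standard error, SE, 0.039), and edgeR gave an adjusted p = 0.0388 over the 16350 genes by its quasi-likelihood test. JAK1 was the only member called lower, where 2.73% of all tested genes were called lower, and 0 members were called higher, against 1.82%. Without any 1 of the 3 WT libraries (adjusted p = 0.148, 0.102 and 0.0969 without replicates 1, 2 and 3), any 1 of the 3 ALK inhibitor libraries (0.251, 0.0602 and 0.0807) or Tyr19Phe replicate 3 (0.0511), JAK1 was not called. Scaling by the upper quartile (0.0631) or by library totals alone (0.121), or no filter (0.062), also ended the call, while DESeq2 kept it (0.00606). The median log2 fold change over the 36 tested genes within 5 Mb of JAK1 was -0.04. In Tyr19Phe cells JAK1 differed from WT by -0.04 (95% interval from -0.12 to 0.04, adjusted p = 0.565).

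JAK2 (ENSG00000096968, chromosome 9 from 4984390 to 5128183), the kinase of the erythropoietin and growth hormone receptors, had 10.5 to 15.2 CPM in WT, 12.5 to 16.3 CPM in ALK inhibitor and 13.6 to 15.4 CPM in Tyr19Phe libraries. The groups overlapped throughout. On the log2 scale it differed from WT by 0.15 with the inhibitor (95% interval from -0.15 to 0.46, adjusted p = 0.724) and 0.20 in Tyr19Phe cells (95% interval from -0.09 to 0.50, adjusted p = 0.392). Neither was called.

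STAT3 (ENSG00000168610, chromosome 17 from 42313324 to 42388568) encodes the factor that IL-6 family cytokines activate. It had 280.3, 264 and 288 CPM in WT replicates 1 to 3, 279.6, 280.4 and 273 CPM in the ALK inhibitor libraries, and 312, 300.2 and 305 CPM in the Tyr19Phe libraries. The Tyr19Phe libraries were the highest 3, and the ALK inhibitor libraries lay within the range of the WT libraries. In Tyr19Phe cells STAT3 rose by 0.14 on the log2 scale relative to WT (SE 0.042, 95% interval from 0.06 to 0.23, edgeR adjusted p = 0.0162). It was the only member called there, 1 of 10 higher and 0 lower, beside 7.61% of all tested genes called higher and 10.4% called lower. The call was lost without WT replicate 2 (adjusted p = 0.0956) and without Tyr19Phe replicate 1 (0.0575). The 200 tested genes within 5 Mb had a median of -0.02, with 10 of them called higher and 27 lower. With the inhibitor the log2 fold change of STAT3 was 0.0022 (95% interval from -0.08 to 0.09, adjusted p = 0.994).

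The direct comparison of the Tyr19Phe and ALK inhibitor cells asks whether the mutant and the drug differ, and its difference does not use the WT means. STAT3 was higher in Tyr19Phe cells by 0.14 (SE 0.042, adjusted p = 0.0163), and STAT5A was the other member called, so that 2 of 10 were called higher and 0 lower. Of all tested genes, 9.57% were called higher and 11.1% lower in this comparison. The STAT3 call was lost without ALK inhibitor replicate 3 (adjusted p = 0.0678), without Tyr19Phe replicate 1 (0.0616), and with both libraries of few detected genes left out (0.063, an alternative chosen after the data were seen). JAK1 was 0.09 higher in Tyr19Phe cells and did not pass (adjusted p = 0.0799), although DESeq2 called it (0.0384). Upper quartile scaling also called JAK1 (0.0484).

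STAT5A (ENSG00000126561, chromosome 17 from 42287547 to 42311943) and STAT5B (ENSG00000173757, chromosome 17 from 42199168 to 42276707) are neighbouring genes for near-identical factors of prolactin, growth hormone and IL-2 family signalling. STAT5A had 6.67, 8.07 and 7.06 CPM in WT libraries, 6.12, 5.55 and 6.46 CPM in ALK inhibitor libraries and 9.79, 7.01 and 9.43 CPM in Tyr19Phe libraries. The ALK inhibitor libraries were the lowest 3, and Tyr19Phe replicate 2 lay among the WT libraries while the other two lay above them. Against WT, it differed by -0.26 on the log2 scale with the inhibitor (95% interval from -0.65 to 0.12, adjusted p = 0.578) and 0.27 in Tyr19Phe cells (95% interval from -0.10 to 0.63, adjusted p = 0.354), and neither was called. Between Tyr19Phe and ALK inhibitor cells the difference was 0.53 (SE 0.182, 95% interval from 0.16 to 0.90, adjusted p = 0.0351). That call was lost without any 1 of the ALK inhibitor libraries (adjusted p = 0.0772, 0.107 and 0.0569 without replicates 1, 2 and 3), without Tyr19Phe replicate 1 (0.149) or replicate 3 (0.116), in DESeq2 (0.0517), without the filter (0.0697) and with both libraries of few detected genes left out (0.222).

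STAT5B had 157, 157 and 145 CPM in WT libraries, 156, 155 and 141 CPM in ALK inhibitor libraries and 152, 144 and 143 CPM in Tyr19Phe libraries. The 3 groups overlapped. On the log2 scale it differed from WT by -0.02 with the inhibitor (95% interval from -0.13 to 0.09, adjusted p = 0.914) and -0.06 in Tyr19Phe cells (95% interval from -0.17 to 0.04, adjusted p = 0.46). Of the 100-base stretches of STAT5A transcripts, 5.26% also occur in STAT5B, and whether reads mapping to both genes were counted is not given in the sources used here. STAT5B averaged 3323 counts per library against 167 for STAT5A, and 2.73% of its 100-base stretches also occur in STAT5A, so a small share of STAT5B reads would be a large one of the STAT5A count. The STAT5A levels are uncertain for that reason, and what such reads did to its call was not tested. Between Tyr19Phe and ALK inhibitor cells STAT5B differed by -0.04 (95% interval from -0.15 to 0.06).

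**Figure D3:**
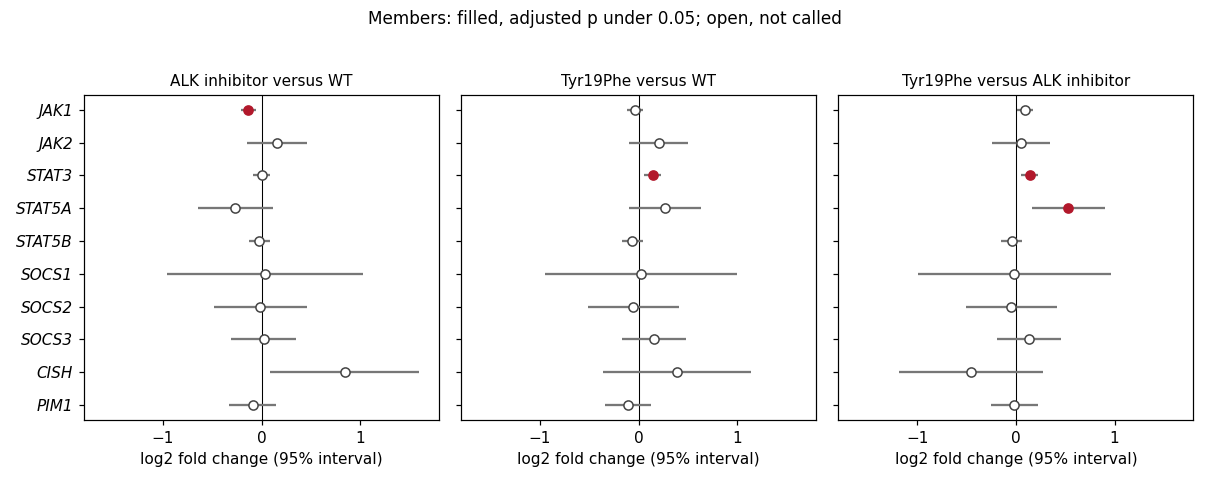
Log2 fold change (horizontal axis) of the 10 members in the 3 comparisons, with 95% intervals not adjusted for the number of genes; filled points passed the adjusted threshold. JAK1 (-0.13) is filled in the first panel, STAT3 (0.14) in the second and STAT3 (0.14) and STAT5A (0.53) in the third, and the intervals are widest for SOCS1.

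CISH (ENSG00000114737, chromosome 3 from 50606490 to 50611831) encodes an SH2 protein that STAT5 induces and that restrains cytokine receptors. It had 2.67, 1.16 and 1.66 CPM in WT libraries, 3.47, 2.20 and 4.19 CPM in ALK inhibitor libraries and 1.69, 2.42 and 3.09 CPM in Tyr19Phe libraries, from 22 to 82 counts. WT replicate 1 lay above ALK inhibitor replicate 2, so the groups overlapped. The inhibitor group differed from WT by 0.84 on the log2 scale (SE 0.370, 95% interval from 0.09 to 1.60). It was not called (edgeR adjusted p = 0.257), since the interval is not adjusted for the number of genes. In Tyr19Phe cells the log2 fold change was 0.39 (95% interval from -0.36 to 1.14, adjusted p = 0.544). CISH overlaps MAPKAPK3 on the opposite strand over 218 of its 5056 exon bases (4.31%, GENCODE 44), MAPKAPK3 averaged 1941 counts per library against 55.4 for CISH, and the strand setting of the counting is not given in the sources used here.

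The SOCS proteins bind JAKs or phosphorylated receptors and can mark them for degradation. SOCS3 (ENSG00000184557, chromosome 17 from 78356778 to 78360077), the main feedback inhibitor of IL-6 and STAT3 signalling, had 14.5, 14.0 and 9.83 CPM in WT, 14.8, 9.67 and 14.4 CPM in ALK inhibitor and 14.1, 15.3 and 13.3 CPM in Tyr19Phe libraries. WT replicate 3 and ALK inhibitor replicate 2 were low, and the groups overlapped. On the log2 scale it differed from WT by 0.02 with the inhibitor (95% interval from -0.31 to 0.35, adjusted p = 0.977) and 0.15 in Tyr19Phe cells (95% interval from -0.17 to 0.48, adjusted p = 0.594).

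SOCS2 (ENSG00000120833, chromosome 12 from 93569814 to 93583487), an inhibitor of growth hormone signalling, had 3.85 to 6.89 CPM over the WT libraries, a range that held all ALK inhibitor and all Tyr19Phe libraries. On the log2 scale it differed from WT by -0.01 with the inhibitor (95% interval from -0.48 to 0.46) and -0.06 in Tyr19Phe cells (95% interval from -0.52 to 0.41). SOCS1 (ENSG00000185338, chromosome 16 from 11254405 to 11256200), the inhibitor of interferon signalling, had 17 to 52 counts per library and means of 1.40, 1.44 and 1.42 CPM in WT, ALK inhibitor and Tyr19Phe cells. Its intervals ran from -0.96 to 1.03 with the inhibitor and from -0.95 to 1.00 in Tyr19Phe cells. A change of either sign of nearly 1 on the log2 scale was thus not excluded, and these intervals are no limit of detection. SOCS1 lies within the span of RMI2 on the opposite strand with no shared exon bases, and SOCS2 shares 277 of 6477 exon bases (4.28%) with its antisense gene.

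PIM1 (ENSG00000137193, chromosome 6 from 37170203 to 37175426), a kinase gene that STAT3 and STAT5 induce, had 18.5, 19.2 and 18.01 CPM in WT, 17.8, 17.96 and 16.6 CPM in ALK inhibitor and 16.6, 18.5 and 16.6 CPM in Tyr19Phe libraries. The ALK inhibitor libraries lay below the WT libraries by a small margin, and Tyr19Phe replicate 2 lay among the WT libraries. Neither difference was called, with log2 fold changes of -0.09 (95% interval from -0.33 to 0.15, adjusted p = 0.817) and -0.11 (95% interval from -0.35 to 0.13, adjusted p = 0.602).

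Without regard to the test, JAK1, STAT5A and PIM1 had groups that did not overlap between ALK inhibitor and WT libraries, 3 of 10 members beside 19.6% of all tested genes. Between Tyr19Phe and WT libraries this held for STAT3 alone, 1 of 10 beside 32.6%, and between Tyr19Phe and ALK inhibitor libraries for JAK1, STAT3 and STAT5A, 3 of 10 beside 34.4%. The median log2 fold change of the 10 members was -0.0045 with the inhibitor, 0.08 in Tyr19Phe cells and 0.02 in the direct comparison, against medians of -0.0010, 0.0035 and 0.0018 over all tested genes.

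The other genes of the pathway were taken from role lists of 89 genes, of which 58 passed the filter. The 31 that did not include 17 with no count in any library, and none of them had more than 94 counts over all 9 libraries. Of the 58, 3 rose and none fell with the inhibitor, and 9 rose and 5 fell in Tyr19Phe cells. In the direct comparison 5 were higher and 11 lower in Tyr19Phe cells. Over all tested genes, 1.82% were called higher and 2.73% lower with the inhibitor, 7.61% and 10.4% in Tyr19Phe cells, and 9.57% and 11.1% in the direct comparison, and the counts of each role list below stand beside the same shares. The direct count of 16 became 10 without ALK inhibitor replicate 3, and 8 without Tyr19Phe replicate 2 or without Tyr19Phe replicate 3. The median log2 fold change of the 58 was 0.02 with the inhibitor, -0.0068 in Tyr19Phe cells and -0.0022 in the direct comparison. The comparisons with WT share the WT libraries, so the counts are set side by side only.

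Of the 8 tested ligands, 1 rose with the inhibitor, 1 rose and 1 fell in Tyr19Phe cells, and 1 was higher and 1 lower in the direct comparison. IL6 and IL11, cytokines that signal through the shared receptor chain gp130 to JAK1 and STAT3, had the smallest adjusted p. IL6 had 6.11, 5.44 and 7.75 CPM in WT libraries, 4.18, 2.58 and 5.48 CPM in ALK inhibitor libraries and 13.2, 14.5 and 12.1 CPM in Tyr19Phe libraries. The Tyr19Phe libraries were all above the rest, and ALK inhibitor replicate 3 lay just above WT replicate 2. IL6 rose by 1.04 on the log2 scale in Tyr19Phe cells (SE 0.197, adjusted p = 0.000191), whereas inhibitor and WT cells differed by -0.65 (SE 0.214, adjusted p = 0.0813), which was not called. Without ALK inhibitor replicate 3, IL6 was called lower with the inhibitor.

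IL11 had 2.00, 1.74 and 3.58 CPM in WT libraries, 8.16, 6.43 and 6.46 CPM in ALK inhibitor libraries and 1.32, 2.38 and 0.981 CPM in Tyr19Phe libraries. Its ALK inhibitor libraries stood above all others, and the WT and Tyr19Phe libraries overlapped. IL11 rose by 1.52 with the inhibitor (SE 0.315, adjusted p = 0.00191), while Tyr19Phe and WT cells differed by -0.64 (SE 0.330, adjusted p = 0.2). Between Tyr19Phe and ALK inhibitor cells IL6 was higher by 1.69 (SE 0.205, adjusted p = 1.45e-07) and IL11 lower, at -2.16 (SE 0.319, adjusted p = 4.49e-06), in Tyr19Phe cells. These calls of IL6 and IL11 were kept in each of the 9 fits that left out a library. CLCF1, another gp130 ligand, fell by 0.29 in Tyr19Phe cells (adjusted p = 0.0376), a call lost without any 1 WT library or without Tyr19Phe replicates 1 or 2 (adjusted p up to 0.179). LIF, also a gp130 ligand, had means of 114, 101 and 111.5 CPM in WT, ALK inhibitor and Tyr19Phe cells. The main test did not call LIF, but DESeq2 called it lower with the inhibitor. LIF was called in the direct comparison with at least 10 counts in every library, and without Tyr19Phe replicate 1.

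Of the 19 tested receptors, none was called with the inhibitor, and 2 rose and 1 fell in Tyr19Phe cells. IL6R, the chain that binds IL-6, had 19.7, 17.4 and 18.4 CPM in WT, 19.6, 18.8 and 17.8 CPM in ALK inhibitor and 11.7, 12.5 and 13.2 CPM in Tyr19Phe libraries. Its Tyr19Phe libraries were the lowest 3, and the other groups overlapped. IL6R fell by 0.57 in Tyr19Phe cells (SE 0.123, adjusted p = 0.000905), a call kept in each fit that left out a library, while inhibitor and WT cells differed by 0.02 (adjusted p = 0.974). In the same cells IL6, its ligand, was higher.

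The shared chain IL6ST (gp130) differed from WT by 0.04 with the inhibitor (adjusted p = 0.764) and by 0.02 in Tyr19Phe cells (adjusted p = 0.795), and was not called. IL4R, the interleukin 4 receptor, rose by 0.27 in Tyr19Phe cells (adjusted p = 0.0169), a call lost without WT replicate 2 (0.0763) or Tyr19Phe replicate 3 (0.0747). IL15RA rose by 0.34 (adjusted p = 0.0393), was lost without WT replicates 1 or 3 or any Tyr19Phe library (adjusted p up to 0.21), and had neighbours within 5 Mb with a median of 0.32. In the direct comparison 2 receptors were higher and 5 lower in Tyr19Phe cells, the lower ones including IL6R (-0.59), IFNAR1, an interferon receptor chain (-0.35, beside a median of -0.13 for its neighbours), IL27RA (-0.61), LIFR (-0.21) and EPOR (-0.63). IL6R and IFNAR1 were called there in all 9 fits that left out a library and IL27RA in all but the one without Tyr19Phe replicate 3 (adjusted p = 0.0622). LIFR was lost without ALK inhibitor replicate 2 or Tyr19Phe replicates 2 or 3 (up to 0.126), and EPOR without ALK inhibitor replicates 2 or 3 or any Tyr19Phe library (up to 0.172).

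**Figure D4:**
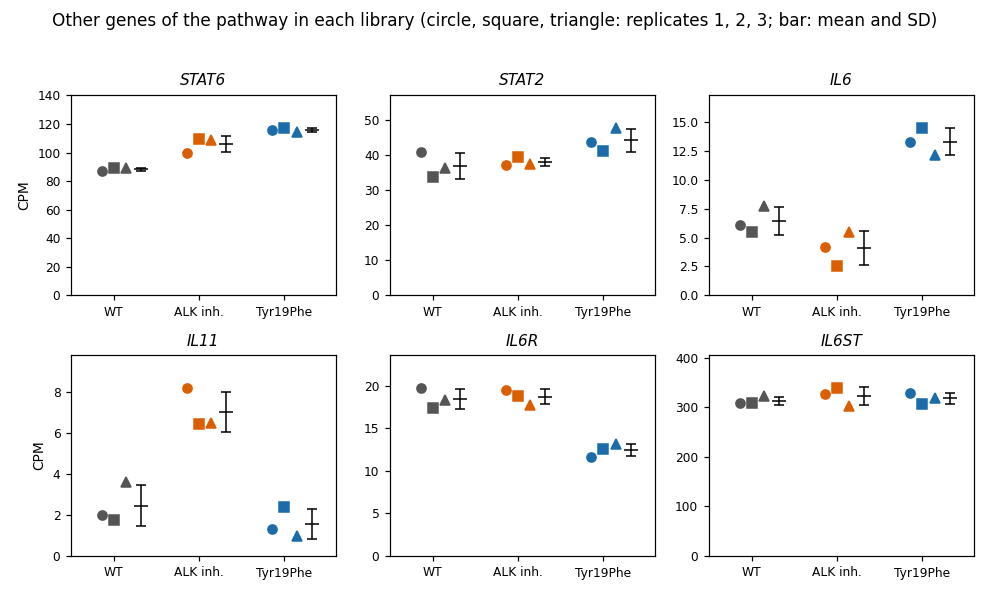
TMM-scaled CPM (vertical axis, linear from 0) of 6 other pathway genes in each library by group, with the mean and SD beside the points. IL6 is highest in Tyr19Phe libraries (12.1 to 14.5 CPM), IL11 in ALK inhibitor libraries (6.43 to 8.16 CPM), and IL6R is lowest in Tyr19Phe libraries (11.7 to 13.2 CPM).

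Of the 5 other JAK and STAT genes on the lists, all tested, 1 rose with the inhibitor, 2 rose in Tyr19Phe cells and none was called in the direct comparison. STAT6, the factor of interleukin 4 signalling, had 86.8, 88.9 and 89.0 CPM in WT, 99.6, 110 and 109 CPM in ALK inhibitor and 116, 117 and 115 CPM in Tyr19Phe libraries. All treated and mutant libraries lay above all WT libraries. STAT6 rose by 0.26 with the inhibitor (SE 0.057, adjusted p = 0.00318) and by 0.39 in Tyr19Phe cells (SE 0.056, adjusted p = 3.14e-06), both kept whichever library was left out.

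STAT2, a factor of interferon signalling, had 41.0, 33.6 and 36.2 CPM in WT, 37.1, 39.3 and 37.6 CPM in ALK inhibitor and 43.8, 41.1 and 47.7 CPM in Tyr19Phe libraries. The Tyr19Phe libraries were the highest 3, WT replicate 1 close below them. STAT2 rose by 0.26 in Tyr19Phe cells (adjusted p = 0.038), a call lost without WT replicates 2 (0.178) or 3 (0.106) or Tyr19Phe replicates 1 (0.0721) or 3 (0.174). TYK2, JAK3 and STAT4 were not called in any comparison, and STAT4 had no count in 1 ALK inhibitor library. TYK2 came near in the direct comparison (0.17, adjusted p = 0.0655). It passed there under upper quartile scaling (0.0483) and with at least 10 counts in every library (0.0436). It also passed without ALK inhibitor replicate 1 (0.0499) or Tyr19Phe replicate 1 (0.0149).

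Of the 16 tested inhibitors outside the members, 1 rose with the inhibitor, and 2 rose and 2 fell in Tyr19Phe cells. SH2B3 (LNK), an adaptor that restrains JAK2, rose by 0.23 with the inhibitor (adjusted p = 0.0391) and by 0.27 in Tyr19Phe cells (adjusted p = 0.00374). The first of these was lost without WT replicate 1 (0.257), ALK inhibitor replicate 1 (0.195) or ALK inhibitor replicate 2 (0.0849). In Tyr19Phe cells the phosphatase DUSP3 rose by 0.17 (adjusted p = 0.00703), the ubiquitin ligase CBL fell by 0.24 (adjusted p = 0.00175) and the phosphatase PTPN11 (SHP2) fell by 0.15 (adjusted p = 0.0109, but 0.0634 without WT replicate 2). In the direct comparison 1 was higher (DUSP3, 0.14, adjusted p = 0.0243, called in 5 of 9 fits that left out a library) and 4 were lower in Tyr19Phe cells. CBL was lower at -0.22 (adjusted p = 0.00318), kept in all 9 such fits but lost without both libraries of few detected genes (0.226). PTPN11 was lower at -0.15 (adjusted p = 0.01, but 0.106 without ALK inhibitor replicate 1). SOCS6 (-0.20, adjusted p = 0.0296) and PTPN6 (SHP1, -0.78, adjusted p = 0.0344) were each lost in 4 of the 9 fits that left out a library. For SOCS6 these were the fits without ALK inhibitor replicates 1 or 3 or Tyr19Phe replicates 2 or 3 (up to 0.156), and for PTPN6 those without replicates 2 or 3 of either group (up to 0.133).

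Of the 10 adaptors and partners, none was called with the inhibitor, while 2 rose and 1 fell in Tyr19Phe cells. STAM, an adaptor of JAKs, rose by 0.39 (adjusted p = 0.000498), beside a median of 0.22 for its neighbours within 5 Mb. PIM2, the relative of PIM1, rose by 0.45 (adjusted p = 0.0233), a call lost without WT replicates 1 (0.118) or 3 (0.0536) or Tyr19Phe replicate 2 (0.175). The coactivator CREBBP fell by 0.23 (adjusted p = 0.000799). In the direct comparison STAM was higher (0.39, adjusted p = 0.00043, beside a median of 0.31 for its 46 neighbours) and CREBBP lower (-0.14, adjusted p = 0.0457) in Tyr19Phe cells, and CREBBP was called in 3 of 9 fits that left out a library (up to 0.327).

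Beyond the feedback genes, textbook targets of STAT3 and STAT5 were counted. The target lists were written with earlier results of these data known, so their counts are a description only. Of 25 tested STAT3 targets, 3 rose and none fell with the inhibitor, and 8 rose and 1 fell in Tyr19Phe cells. Of 17 tested STAT5 targets, 1 rose and 1 fell with the inhibitor, and 6 rose and 3 fell in Tyr19Phe cells. In the direct comparison 6 STAT3 targets were higher and 4 lower, and 3 STAT5 targets were higher and 3 lower, in Tyr19Phe cells. The lists overlap and include members, and without the members they held 37 tested genes, of which 4 rose and 1 fell with the inhibitor and 11 rose and 4 fell in Tyr19Phe cells. In the direct comparison 6 of the 37 were higher and 7 lower in Tyr19Phe cells. Of all tested genes, 1.82% were called higher and 2.73% lower with the inhibitor, and 7.61% and 10.4% in Tyr19Phe cells. The direct shares were 9.57% and 11.1%. In Tyr19Phe cells the 11 higher and 4 lower became 6 and 5 without WT replicate 1, 6 and 4 without WT replicate 3, and 6 and 4 without Tyr19Phe replicate 2. The median log2 fold changes of the 37 genes were -0.03 with the inhibitor and 0.02 in Tyr19Phe cells.

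With the inhibitor JUNB, an immediate early factor, rose by 0.46 (adjusted p = 2.1e-05), TNFRSF1A, the TNF receptor, by 0.31 (adjusted p = 0.00206), TIMP1, a protease inhibitor, by 0.29 (adjusted p = 0.00184, standard error 0.061) and ID1 by 0.18 (adjusted p = 0.00242), each in all 9 fits that left out a library. CCND3 (cyclin D3) fell by 0.23 with the inhibitor (adjusted p = 0.0157) and by 0.21 in Tyr19Phe cells (adjusted p = 0.0119), and both calls were lost without WT replicate 2 (0.112 and 0.0806). The first was also lost without ALK inhibitor replicates 1 (0.0924) or 3 (0.0845), and the second without Tyr19Phe replicate 1 (0.0545).

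In Tyr19Phe cells CCND1 (cyclin D1), a STAT3 and STAT5 target, rose by 0.32 (adjusted p = 1.32e-07), while inhibitor and WT cells differed by -0.10 (adjusted p = 0.135). JUNB rose by 0.25 there (adjusted p = 0.00893, but 0.109 without WT replicate 3), and ID1 rose by 0.26 (adjusted p = 2.37e-06). CEBPB, a factor of the acute phase response, rose by 0.30 (adjusted p = 0.0111, but 0.0923 without WT replicate 3 and 0.103 without Tyr19Phe replicate 2), and TIMP1 rose by 0.20 (adjusted p = 0.0148, but 0.116 without WT replicate 1 and 0.0814 without Tyr19Phe replicate 1). Among the members of these lists that fell, HIF1A, the hypoxia factor, fell by 0.25 (adjusted p = 6.06e-06), beside a median of -0.17 for its neighbours within 5 Mb. DUSP5, a phosphatase of ERK, fell by 0.77 (adjusted p = 2.06e-08), and SPRED1, an inhibitor of RAS signalling, fell by 0.41 (adjusted p = 0.000128), beside a median of -0.14 for its neighbours. DUSP5 and SPRED1 respond to the RAS-ERK pathway as well as to STAT5.

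**Figure D5:**
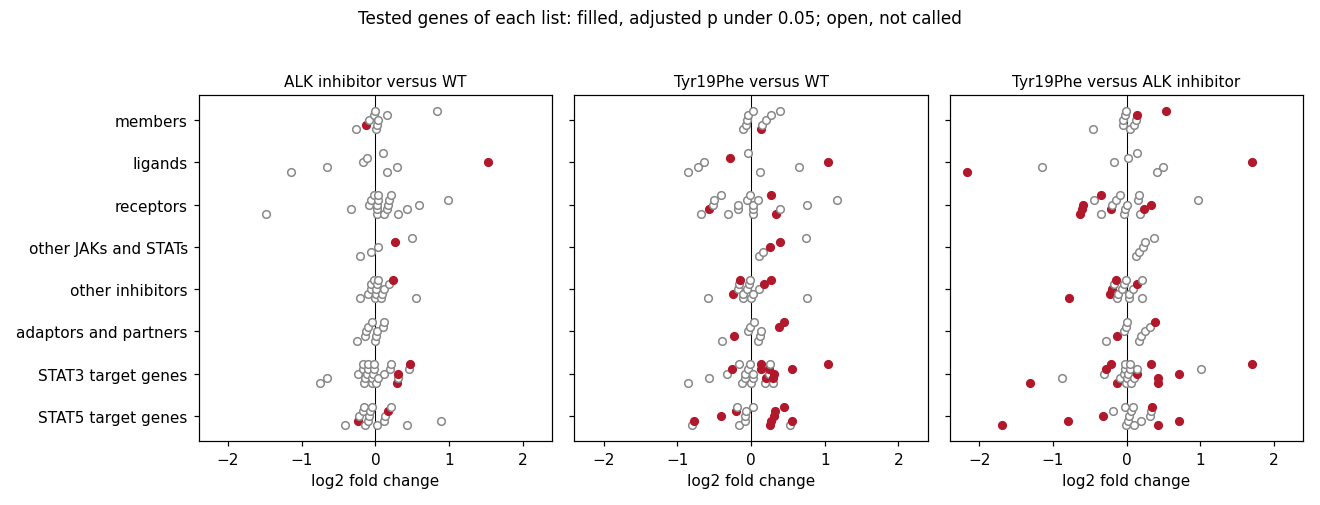
Log2 fold change (horizontal axis) of every tested gene of each list in the 3 comparisons; filled points passed the adjusted threshold, and vertical position within a list only separates points. Filled points are fewest with the inhibitor (3 of 58 pathway genes outside the members) and include IL11 at 1.52, and IL6 at 1.04 is the highest of the Tyr19Phe calls; IL6 and other shared genes appear in more than 1 list.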

How the data were processed

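RNA of SKOV3 cells was sequenced by the authors in 9 libraries. The authors deposited whole-number read counts per gene, without normalization; the submitters' processing notes name CASAVA, HISAT2 2.0.5, featureCounts 1.5.0-p3 and hg38. Annotation release and strand setting are not given in the sources used here. All 9 columns matched the labels. The members and gene lists were chosen with earlier results of these data known.

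The main test was that of edgeR 4.0.16 in R 4.3.3 (filterByExpr with a minimum count of 10 and minimum total of 15, TMM, 1 mean per group over all 9 libraries, 6 residual degrees of freedom, quasi-likelihood test) and Benjamini-Hochberg adjustment over 16350 genes, called under 0.05. DESeq2 1.42.0 was an alternative. Other alternatives changed the scaling, filter, call limits, samples and replicate block, or left out each library. The code was tested on simulated data. Named were all members, the other JAK and STAT genes reported, and up to 6 called genes per list and comparison with at least 1 CPM and the smallest adjusted p, and the 3 genes most like each called member. IL6ST, LIF, MAPKAPK3 and the cell markers are named outside this rule, IL6ST and LIF after their values were seen. Some genes of the lists are not reported here. Intervals are at 95%. Totals of 18169050 to 29320184 counts set the precision, and limits from counts cover counting error only. Figures used matplotlib in Python.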

Additional observations from a re-analysis of the deposited data

How the results depend on the processing

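Members called (1, 1 and 2 with the inhibitor, in Tyr19Phe cells and directly) became 0 with the inhibitor under upper quartile scaling, library totals, no filter, a fold limit of 0.5 on the absolute log2 scale, or without the libraries of few detected genes (ALK inhibitor replicate 2 and Tyr19Phe replicate 3, chosen after the data were seen), and 2 at an unadjusted p under 0.05 (JAK1 and CISH). The fold limit left 0 in Tyr19Phe cells and 1 directly. No filter left 1 directly, and leaving out both libraries 0. Upper quartile scaling gave 3 directly (JAK1, STAT3 and STAT5A), and under DESeq2 the 2 were JAK1 and STAT3. Leaving out 1 library gave 0 to 1, 0 to 1 and 0 to 2 members. Other pathway genes called directly went from 16 to 10 without both libraries and to between 8 and 18 with 1 library left out, and target genes called directly from 13 to between 8 and 13. The cause was not tested.

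The replicate block left 1, 1 and 2 members called. The numbers do not pair the libraries: the 9 correlations of same-numbered deviations ran from -0.0116 to 0.026. Directions that turned belonged to differences that were not called. With the inhibitor these were STAT3 (-0.00172 without both libraries), STAT5B (0.0034 with library totals), SOCS2 (0.0145 with totals, 0.0159 with the replicate block) and STAT4 (0.36 without both). In Tyr19Phe cells it was STAT4 (-0.31 with the replicate block). Directly they were SOCS1 (0.22) and PIM1 (0.0325), without both libraries.

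With 1 library left out, log2 fold changes with the inhibitor ranged from -0.0294 to 0.0327 for STAT3, -0.0564 to 0.0235 for STAT5B, -0.20 to 0.27 for SOCS1, -0.20 to 0.20 for SOCS2, -0.13 to 0.19 for SOCS3, -0.0199 to 0.125 for STAT2 and -1.20 to 0.36 for STAT4. In Tyr19Phe cells they ranged from -0.21 to 0.34 for SOCS1, -0.25 to 0.16 for SOCS2, -0.0033 to 0.26 for SOCS3 and -1.50 to 0.62 for STAT4. Directly they ranged from -0.0335 to 0.159 for JAK2, -0.0707 to 0.0117 for PIM1, -0.20 to 0.30 for SOCS1, -0.20 to 0.032 for SOCS2, -0.0394 to 0.24 for SOCS3 and -1.29 to 1.36 for STAT4. At 17 to 82 counts, SOCS1 and CISH had standard errors of 0.36 to 0.49 on the log2 scale, and even the 0.84 of CISH was not called.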

Other observations

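The genes whose log2 CPM ran most like each called member over the 9 libraries, among 11140 genes averaging 5 CPM or more, are given as a description. For JAK1 they were CCT6A (Pearson r = 0.955), ANLN (0.954) and OGT (0.951). For STAT3 they were CLDN1 (0.966), SLC44A2 (0.958) and FLRT2 (0.956), and for STAT5A they were EIF4EBP2 (0.933), IRF7 (0.932) and ATP6V0E1 (0.924). The points share their libraries and group differences, and the highest values were picked out of many genes.

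Some calls of the target lists in the direct comparison were not described with the report. Relative to ALK inhibitor cells, Tyr19Phe cells had higher BCL6, a repressor that STAT5 and STAT3 control, by 0.70 (standard error, SE, 0.187, adjusted p = 0.00605, but 0.0693 without Tyr19Phe replicate 2), and higher DUSP4, a phosphatase of ERK, by 0.35 (adjusted p = 0.0061, but 0.0799 without ALK inhibitor replicate 2 and 0.0687 without Tyr19Phe replicate 2). SPRY1, an inhibitor of receptor tyrosine kinase signalling, was lower at -1.69 (SE 0.429, adjusted p = 0.00409). It had 18 to 37 counts in each Tyr19Phe library against 41 to 81 in ALK inhibitor libraries, and a median of -0.25 for its neighbours within 5 Mb. TNFRSF1A was lower at -0.28 (adjusted p = 0.00146), DUSP5 lower at -0.79 (adjusted p = 9.76e-09) and CCND1 higher by 0.42 (adjusted p = 3.55e-10), each in all 9 fits that left out a library. HIF1A was lower at -0.14 (adjusted p = 0.00862, but 0.0505 without ALK inhibitor replicate 1 and 0.117 without Tyr19Phe replicate 2).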
